A study of Mus musculus with 8 samples.

Results

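The glypicans and syndecans are the 10 genes *Gpc1* to *Gpc6* and *Sdc1* to *Sdc4*, taken by symbol from a read count table of 28432 genes. RNA was sequenced from E15.5 mouse retinas, with both retinas of 1 embryo as 1 sample, in 4 *Lhx2* CKO embryos (*Lhx2* flox/-; *Hes1* CreERT2/+) and 4 control embryos (*Lhx2* flox/+; *Hes1* CreERT2/+). All embryos carried 1 copy of the Cre-dependent tdTomato reporter *Rosa* ai14, and all received tamoxifen through the dam at E11.5, at 0.15 to 0.2 mg per g of body weight. CreERT2 is expressed where *Hes1* is, which in the embryonic retina means the progenitor cells, so the floxed exons were lost in those cells and their descendants. The CKO embryos also carried a germline *Lhx2* null allele in every cell, the controls had 1 intact *Lhx2* allele and 1 floxed allele, and CKO retinas were small. The comparison of the genotypes asks which heparan sulfate proteoglycan RNAs differ once *Lhx2*, a LIM homeodomain factor of retinal progenitors, is inactivated.

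Glypicans and syndecans are the main families of cell surface heparan sulfate proteoglycans. A glypican is a globular core protein held on the outer membrane by a GPI lipid anchor, and a syndecan is a transmembrane protein whose short cytoplasmic tail binds PDZ proteins. Both carry long sulfated sugar chains that bind Hedgehog, Wnt, FGF and BMP proteins and so affect how far these ligands spread and how well they reach their receptors; in the developing eye, heparan sulfate is needed for FGF signalling and for the guidance of retinal axons.

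The libraries held 13955259 to 19099937 counted reads in CKO samples and 13143587 to 15063867 in control samples, and the 9 members that could be tested had 81 to 2928 reads per library. Normalised counts are reads divided by a library's size factor. The total for *Lhx2* was 2761 ± 143 normalised counts in CKO samples and 3332 ± 265 in control samples (SD, n = 4 each), a log2 fold change (log2FC, CKO over control) of -0.27 with an edgeR adjusted p of 0.00502. These counts cover the whole gene, including exons outside the deleted part, so they do not check the labels. CKO replicate 1 stood apart from the other CKO samples on the second principal component, which held 17.7% of the variance, and so did control replicate 3 from the other controls. The samples were bulk tissue, in which fewer cells of a type and less RNA per cell cannot be told apart. Levels per length are given as RPKM, reads scaled to the length of the merged exons of a gene (GENCODE M21) and to library size. The summed level of 12 retinal progenitor markers was 988 to 1130 RPKM in CKO samples and 1663 to 1913 in control samples (8 fell, 1 rose), and that of 12 retinal ganglion cell markers was 1991 to 2060 in CKO samples and 1536 to 1858 in control samples (6 rose).

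Of the 10 genes, 3 fell in the CKO retina, namely *Gpc3*, *Sdc2* and *Sdc4*, none rose, 6 did not pass the test, and *Gpc5* had too few reads to be tested. Fold changes of the 3 that fell lay between 0.509 and 0.585. Beside the 0 that rose by edgeR, 1 (*Gpc2*) was higher at an unadjusted p below 0.05, and DESeq2 and limma voom also called 0 risen and 3 fallen members. A gene counted as changed at an adjusted p below 0.001 in edgeR's quasi-likelihood test. The test covered all 13891 genes with at least 20 normalised counts in at least 3 samples. The study used this cutoff with DESeq2, which here called 1158 risen and 1232 fallen genes, where edgeR called 505 and 691. By edgeR, 4.97% of all genes tested fell, 3.64% rose, and 8.61% changed in either direction. The median log2FC of the 9 members tested was -0.25, beside 0.0053 over all genes tested, and their median absolute log2FC was 0.598, beside 0.180 over all genes. At an adjusted p below 0.05, 5 of the 9 members passed, the added ones being *Gpc2* and *Gpc4*, where 33.3% of all genes did. The normalised counts of the genotypes did not overlap for 4 members (*Gpc2*, *Gpc3*, *Sdc2* and *Sdc4*), beside 33.8% of all genes tested.

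**Figure D1:**
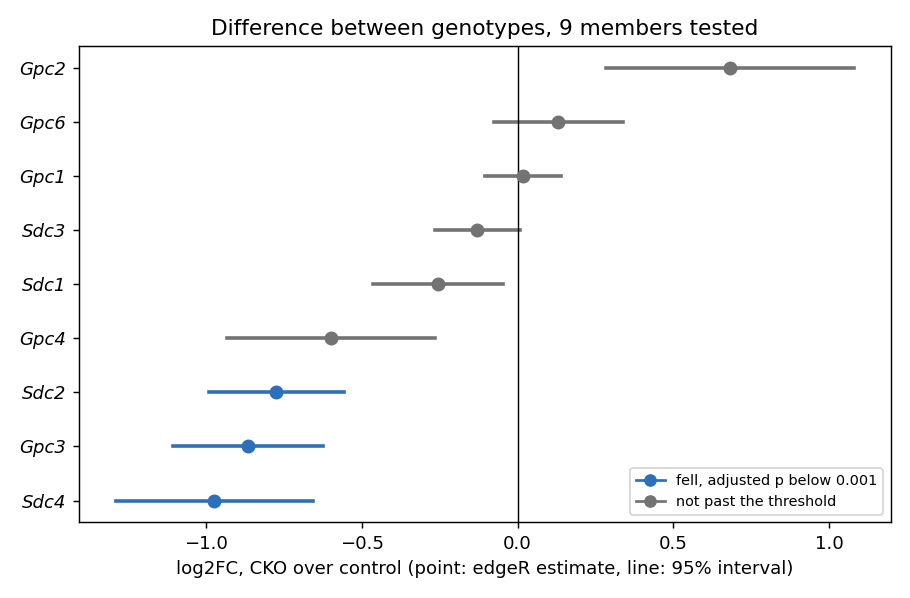
The log2FC (CKO over control) of the 9 members tested, as points with 95% intervals, from the fit over all genes. *Sdc4*, *Gpc3* and *Sdc2* (blue) lie between -0.97 and -0.77, and *Gpc2* at 0.68 is the only member with an interval wholly above 0.

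The upstream sequences of 2 genes that fell, *Gpc3* and *Sdc4*, are shown beside that of *Gpc5*, to set members that changed against the one with almost no reads. Each run holds the 250 bases before the RefSeq start site in GRCm38.p6, the assembly that mm10 also names. Of the runs shown, that of *Sdc4* lies wholly inside the span GENCODE M21 gives the gene (chr2:164424247-164443887), whose start differs from the RefSeq one. Capitals mark GGGCGG (the GC box bound by SP and KLF factors), CCAAT or TATAAA on either strand.
*Gpc3* (chrX:52613975-52614224, minus strand): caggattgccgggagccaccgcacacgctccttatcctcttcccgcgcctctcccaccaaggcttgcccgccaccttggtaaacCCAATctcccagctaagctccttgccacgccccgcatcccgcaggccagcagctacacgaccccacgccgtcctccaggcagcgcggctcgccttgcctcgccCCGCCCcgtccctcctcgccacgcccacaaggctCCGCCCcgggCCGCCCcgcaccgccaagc
*Sdc4* (chr2:164443189-164443438, minus strand): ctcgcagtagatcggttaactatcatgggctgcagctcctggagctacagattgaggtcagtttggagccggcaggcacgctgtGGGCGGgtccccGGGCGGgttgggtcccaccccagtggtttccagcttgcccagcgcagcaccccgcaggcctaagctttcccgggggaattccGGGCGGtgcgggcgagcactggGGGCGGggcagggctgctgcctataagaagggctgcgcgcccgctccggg
*Gpc5* (chr14:115091965-115092214, plus strand): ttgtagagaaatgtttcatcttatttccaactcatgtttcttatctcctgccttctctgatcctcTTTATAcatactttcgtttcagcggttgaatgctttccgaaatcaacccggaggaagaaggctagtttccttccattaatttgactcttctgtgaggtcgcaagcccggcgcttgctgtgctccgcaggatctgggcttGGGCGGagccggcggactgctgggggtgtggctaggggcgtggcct
The *Gpc3* and *Sdc4* runs were 71.6% and 68% G or C, against 51.2% in that of *Gpc5* and a median of 52.4% over 32841 mouse promoters. The runs of *Gpc2*, *Gpc4*, *Sdc1* and *Sdc3*, which did not pass, were 66.4%, 68.4%, 66% and 76.4% G or C, so a high share was not particular to the genes that fell. GGGCGG was found 3 times for *Gpc3*, 4 times for *Sdc4* and 1 time for *Gpc5*, and at least 1 time in each of the 7 members searched (*Gpc2*, *Gpc3*, *Gpc4*, *Gpc5*, *Sdc1*, *Sdc3* and *Sdc4*), while 32.7% of all promoters held it. CCAAT was found in 33.9% and TATAAA in 12.4% of all promoters. The homeodomain core TAATTA, present in 4.84% of all promoters, and the GLI site GACCACCCA, present in 0.225%, were in none of the 7 windows, which says only that these letters are not there. *Gpc1*, *Gpc6* and *Sdc2* were not searched here.

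Per length of all merged exons, *Sdc3* and *Gpc1* had the highest mean levels in both genotypes, an order that depends on the uncertain length of *Gpc2*. The place of *Gpc1* beside *Sdc3* also depends on the length of *Gpc1*, whose exons overlap another gene. In CKO samples *Sdc3* was at 27.2 ± 1.80 RPKM, *Gpc1* at 25.2 ± 1.01, *Gpc2* at 20.99 ± 7.14, *Sdc1* at 11.1 ± 1.01, *Gpc6* at 7.93 ± 0.462, *Gpc4* at 7.08 ± 1.61, *Gpc3* at 5.005 ± 0.785, *Sdc2* at 4.69 ± 0.551, and *Sdc4* at 2.38 ± 0.487 (SD, n = 4 each). In control samples the order was *Sdc3* (29.7 ± 1.99 RPKM), *Gpc1* (24.9 ± 1.61), *Sdc1* (13.2 ± 1.67), *Gpc2* (13.1 ± 1.10), *Gpc4* (10.7 ± 1.46), *Gpc3* (9.11 ± 0.440), *Sdc2* (7.998 ± 0.698), *Gpc6* (7.23 ± 1.01) and *Sdc4* (4.65 ± 0.351). *Gpc5* came last in both genotypes. The sample ranges of the neighbours *Gpc4* and *Gpc3*, and of *Gpc3* and *Sdc2*, overlapped in each genotype. *Sdc3* and *Gpc1* overlapped in CKO samples but not in control samples, as did *Gpc1* and *Gpc2*, which are neighbours only in the CKO order. *Gpc2* and *Sdc1* did not overlap in CKO samples and did in control samples. *Gpc6* stood in the fifth place in CKO samples and in the eighth in control samples, where its range overlapped that of *Sdc2*.

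**Figure D2:**
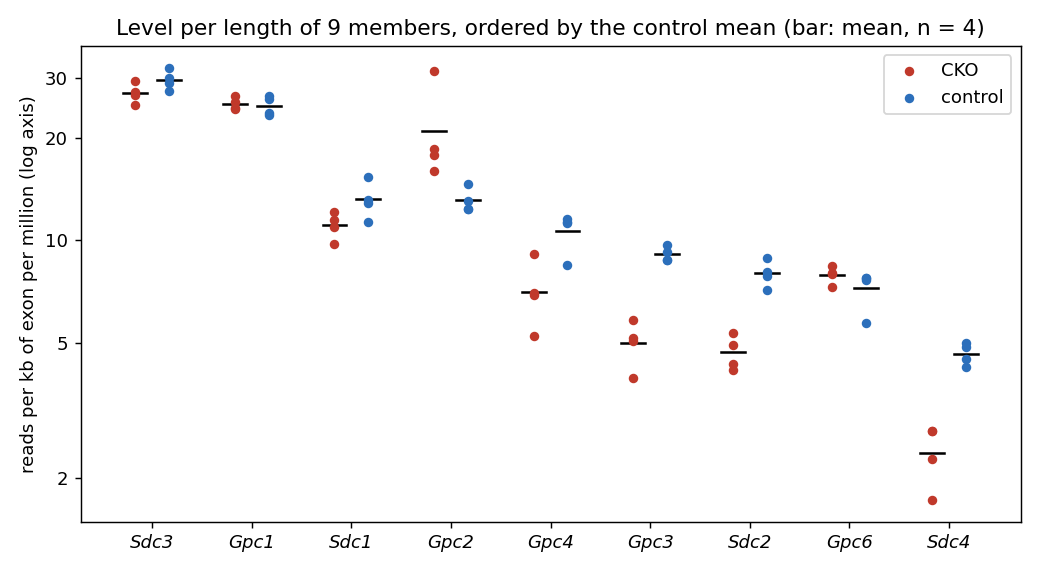
Level in RPKM (log axis) of 9 members, with 4 CKO samples (red) left of 4 control samples (blue) and a bar at each mean. *Sdc3* and *Gpc1* lie highest in both genotypes, apart from *Gpc2* in CKO replicate 1, and *Sdc4* is lowest, at 2.38 in CKO samples and 4.65 in control samples.

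*Gpc3*, which in mouse binds Shh and lowers the amount available to its receptor Patched, lies on chrX:52272426-52613950 (GRCm38). It had 159.7, 242, 208 and 211 normalised counts in CKO replicates 1 to 4, against 359, 394, 381 and 359 in control replicates 1 to 4. Every CKO sample was below every control sample, and the gap from the highest CKO to the lowest control sample was wider than the spread within either genotype. The means were 205 ± 34.04 in CKO samples and 373 ± 16.9 in control samples (SD, n = 4 each), a fold change of 0.549. The log2FC was -0.87 (SE 0.109, 95% interval -1.10 to -0.63, edgeR adjusted p = 0.000139). *Gpc3* passed in all 16 alternative fits, with adjusted p from 6e-11 to 0.000767.

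*Gpc4*, a glypican best known from Wnt and FGF signalling, is the X-linked neighbour of *Gpc3* (chrX:52053021-52165252, same strand), with 107173 bases and no protein-coding gene between them. Its normalised counts were 208, 286, 369.8 and 279.6 in CKO samples and 468, 453, 345 and 456 in control samples. CKO replicate 3 was above control replicate 3, so the genotypes overlapped, and control replicate 3 lay apart from the other controls. The log2FC of -0.60 (SE 0.153, 95% interval -0.93 to -0.26) had an edgeR adjusted p of 0.011 and did not pass. The log2 ratio of *Gpc3* to *Gpc4* reads, which needs no scaling between libraries, was -0.46 ± 0.25 in CKO samples and -0.20 ± 0.24 in control samples (SD, n = 4 each). The difference of -0.27 had p = 0.143 in an exact two-sided permutation test, which cannot go below 0.0286 with 4 samples against 4. A difference between the neighbours was thus not detected, which does not show that they moved alike.

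Embryo sex was read from the data because both genes are X-linked. CKO replicate 1 and control replicates 1 and 4 had 31307 to 62937 *Xist* reads and were female, and the other 5 samples were male. Among males alone, *Gpc3* had 242, 208 and 211 normalised counts in CKO samples and 394 and 381 in control samples. With sex as a covariate the log2FC was -0.93 for *Gpc3* (edgeR adjusted p = 4.68e-05) and -0.63 for *Gpc4* (edgeR adjusted p = 0.0124), which left each on the same side of the threshold.

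**Figure D3:**
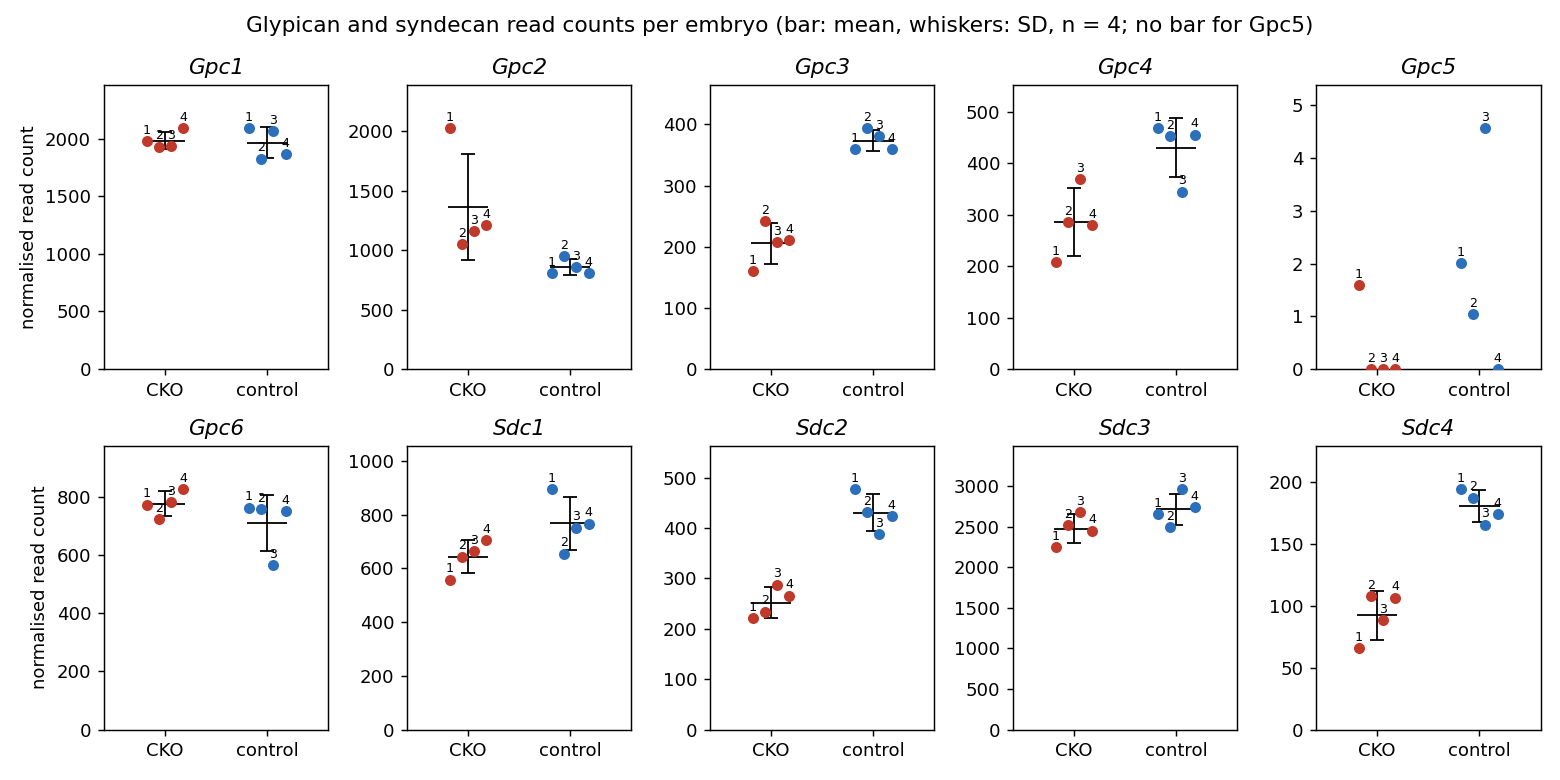
Normalised read counts of the 10 members in each embryo, with CKO samples (red) left of control samples (blue), numbered by replicate, and each mean ± SD (none drawn for *Gpc5*). *Gpc3*, *Sdc2* and *Sdc4* are lower in all 4 CKO samples than in any control sample, and *Gpc2* in CKO replicate 1, at 2027, lies above its other samples.

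*Gpc2*, also called cerebroglycan, is a glypican of the developing nervous system found on newborn neurons and growing axons. Its normalised counts were 2027, 1050.2, 1159.6 and 1214 in CKO samples, against 806, 951, 857 and 807 in control samples. All CKO samples were above all control samples, and CKO replicate 1 lay far above the other CKO samples. The means were 1363 ± 448 in CKO samples and 855 ± 68.1 in control samples (SD, n = 4 each), with a log2FC of 0.68 (SE 0.181, 95% interval 0.28 to 1.08, edgeR adjusted p = 0.0134), which did not pass. Without CKO replicate 1 the log2FC was 0.41 with an edgeR adjusted p of 0.00241, still not past the threshold. This sample was the only female CKO embryo, and with sex as a covariate the log2FC was 0.72 (edgeR adjusted p = 0.00598). The table holds another entry under the symbol *Gpc2*, named Gm43720 in GENCODE M21, which shares 2376 bases or 55.6% of the *Gpc2* exons on the same strand and had 0 to 2 reads per library. No source used here says how reads in shared exons were assigned, so the level of *Gpc2* is uncertain. Per kilobase of its unshared exons, a setting chosen after seeing the data, *Gpc2* would be at 47.3 ± 16.1 in CKO samples and 29.6 ± 2.49 in control samples (SD, n = 4 each).

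*Gpc1*, the glypican with the highest mean level per length of all merged exons, is enriched on neurons and axons. Per kilobase of unshared exon *Gpc2* was above it, and *Gpc2* led in CKO replicate 1 by either length. It had 1979.7, 1929.8, 1932 and 2087 normalised counts in CKO samples and 2089, 1826, 2065 and 1867 in control samples. The genotypes overlapped fully, and the log2FC was 0.02 with a 95% interval from -0.11 to 0.14 (edgeR adjusted p = 0.839). The sign turned in several alternatives, with log2FC from -0.0095 to 0.0488. A gene on the other strand, *Ankmy1*, covers 18.9% of the *Gpc1* exons, and the library kit did not keep strand. *Ankmy1* averaged 4.59 ± 2.91 normalised counts in CKO samples and 3.40 ± 0.448 in control samples (SD, n = 4 each). How reads in the shared part were assigned is not known, so the level of *Gpc1* per length is uncertain too.

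*Gpc6* and *Gpc5* are neighbours on chromosome 14, 400135 bases apart, in another pair of glypican genes on 1 strand. *Gpc6* had 772, 723, 780.0 and 826 normalised counts in CKO samples and 762, 756, 564 and 749 in control samples. Control replicate 3 was the only sample clearly below the rest, and the log2FC of 0.13 (95% interval -0.08 to 0.34, edgeR adjusted p = 0.317) did not pass. *Gpc5* had 2, 0, 0 and 0 reads in CKO samples and 2, 1, 4 and 0 reads in control samples. Over the groups these were 2 CKO reads and 7 control reads, a ratio scaled to library size of 0.256 with an exact 95% interval of 0.0259 to 1.34, which covers counting error only. So *Gpc6* was expressed in every library and its neighbour was near the limit of detection.

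Among the syndecans, *Sdc2* and *Sdc4* fell, with fold changes of 0.585 and 0.509. *Sdc2*, known from mesenchymal cells and from dendritic spines of neurons, lies on chr15:32920723-33034935. It had 221, 234, 288 and 266 normalised counts in CKO samples, against 477, 431, 388 and 423 in control samples. Every CKO sample was below every control sample, and the means were 252 ± 30.3 in CKO samples and 430.0 ± 36.7 in control samples (SD, n = 4 each). The log2FC was -0.77 (SE 0.0984, 95% interval -0.99 to -0.56, edgeR adjusted p = 0.000147), and the call held in 15 of 16 alternative fits.

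*Sdc4*, a syndecan of focal adhesions that binds protein kinase C alpha, lies on chr2:164424247-164443887. It had 65.9, 108, 88.6 and 107 normalised counts in CKO samples, against 194, 187, 166 and 174 in control samples. Every CKO sample was below every control sample, and CKO replicate 1 was the lowest. The means were 92.2 ± 19.6 in CKO samples and 180.4 ± 12.95 in control samples (SD, n = 4 each), with a log2FC of -0.97 (SE 0.144, 95% interval -1.29 to -0.66, edgeR adjusted p = 0.000414). Of the 3 calls this one was lost most often, in 4 of 8 fits that left out 1 sample (CKO replicate 3 or control replicate 1, 2 or 4), where the edgeR adjusted p was at most 0.002. *Sdc4* also had the fewest reads of the members tested.

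*Sdc3* and *Sdc1* did not pass. *Sdc3*, the neuronal syndecan, had 2251, 2522, 2683 and 2452 normalised counts in CKO samples and 2654, 2493, 2965 and 2738 in control samples, with a log2FC of -0.13 (95% interval -0.27 to 0.0073, edgeR adjusted p = 0.133). *Sdc1*, known from epithelia and plasma cells, had 558, 644, 665 and 706 normalised counts in CKO samples and 895, 655, 751 and 767 in control samples, with a log2FC of -0.25 (95% interval -0.46 to -0.05, edgeR adjusted p = 0.0592). In both genes the genotypes overlapped, and the differences between members were not tested.

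Summed over each family, the level of the 6 glypicans was 60.4 to 74.3 RPKM in CKO samples and 62.7 to 67.0 in control samples, with means of 66.2 ± 5.83 in CKO samples and 65.1 ± 2.20 in control samples (SD, n = 4 each). The sum of the 4 syndecans was 40.7 to 48.5 in CKO samples and 51.8 to 58.3 in control samples, so these ranges did not overlap. Within the glypican sum, *Gpc2* made up 31.2 ± 7.56% in CKO samples and 20.2 ± 1.57% in control samples, and *Gpc3* made up 7.67 ± 1.79% in CKO samples and 14.0 ± 0.756% in control samples. With *Gpc2* per kilobase of unshared exon, the glypican sum was 92.5 ± 14.7 RPKM in CKO samples and 81.5 ± 2.96 RPKM in control samples, and the share of *Gpc2* was 50.1 ± 8.29% in CKO samples and 36.2 ± 2.26% in control samples (SD, n = 4 each), so the likeness of the sums depends on that length. Per length of all merged exons, the share of *Gpc1* was 38.3 ± 2.81% in CKO samples and 38.4 ± 2.89% in control samples. Within the syndecan sum, *Sdc3* made up 60.0 ± 1.73% in CKO samples and 53.5 ± 2.99% in control samples, *Sdc2* 10.3 ± 0.644% in CKO samples and 14.4 ± 1.30% in control samples, and *Sdc4* 5.22 ± 0.886% in CKO samples and 8.38 ± 0.802% in control samples.

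The members did not vary evenly within a genotype. In CKO samples the coefficient of variation of the level ran from 4.02% for *Gpc1* to 34.02% for *Gpc2*, and in control samples from 4.83% for *Gpc3* to 13.9% for *Gpc6*, with *Gpc5* left out. CKO replicate 1 was the lowest CKO sample for 6 of the 9 members tested and the highest for 1, *Gpc2*. It was the only female CKO embryo, so sex and other traits of this sample cannot be told apart. Among control samples, replicate 1 was the highest for 6 of 9. None of the 3 calls was lost without CKO replicate 1 or without control replicate 3, the 2 samples that stood apart.

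Markers of other tissues were examined because a dissected retina can carry them and because syndecans and glypicans are also made there. Of 7 endothelial markers tested, *Kdr* and *Cldn5* fell and 5 did not pass, and the summed level of the 8 listed was 23.1 to 32.8 RPKM in CKO samples and 40.3 to 42.5 in control samples. *Kdr*, which retinal progenitors also express, was at 21.3 RPKM in CKO samples and 29.8 RPKM in control samples on its own. *Pecam1*, a defining endothelial marker, had 43.7, 38.8, 50.3 and 90.7 normalised counts in CKO samples and 69.5, 46.9, 34.3 and 61.8 in control samples. Of 5 pigment epithelium markers tested 1 fell in edgeR (*Pmel*), 3 fell in DESeq2, and 4 were lower at an unadjusted p below 0.05. The sum of the 8 listed was 3.24 to 23.3 RPKM in CKO samples and 6.07 to 9.80 in control samples. The highest CKO value, in replicate 4, came with 379.9 normalised counts of *Ttr*, and without *Ttr*, a setting chosen after seeing the data, the sum was 2.22 to 2.94 in CKO samples and 5.84 to 9.30 in control samples, without overlap. Of 2 periocular mesenchyme markers tested 1 fell (*Col1a2*), with sums of 0.380 to 1.22 in CKO samples and 0.691 to 1.30 in control samples. Of 2 lens, 6 blood and 8 macrophage markers tested none passed in edgeR, where 1 lens marker was higher and 1 macrophage marker lower at an unadjusted p below 0.05, and DESeq2 called the 1 lens marker only. The summed lens level was 2.51 to 5.75 in CKO samples and 1.83 to 3.10 in control samples. For blood the sum was 50.2 to 164 in CKO samples and 32.2 to 207 in control samples, and for macrophages it was 20.9 to 28.02 in CKO samples and 26.8 to 28.6 in control samples. No listed marker was at 0 in all samples of a genotype. The part of these cells, and of the shift between progenitor and ganglion cell markers, in the results for *Gpc3*, *Sdc2* and *Sdc4* was not tested.

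The sugar chains of these core proteins are built and altered by other genes, which were taken as lists by role. Other heparan sulfate proteoglycans and cytoplasmic partners of syndecans were listed too and are counted with them. Of 57 listed heparan sulfate genes other than the 10 members, 51 were tested, 4 rose, 2 fell and 45 did not pass, with a median log2FC of 0.04. The 6 that changed are 11.8% of those tested, near the 8.61% of all genes. Of the 4 that rose, 2 were other proteoglycans and 1 was a syndecan partner, so the total does not describe the chain genes alone. The 2 that fell were in the list of chain editing and core protein release. In edgeR none of 7 genes of the linker that joins the chain to the core protein passed, nor any of 4 tested polymerases and their relatives, with 1 linker gene higher and 1 polymerase lower at an unadjusted p below 0.05 and 0 called by DESeq2 or limma voom. The copolymerase *Ext1* had a log2FC of -0.07 (95% interval -0.24 to 0.10) and its partner *Ext2* -0.19 (95% interval -0.33 to -0.05). None of the 4 N-deacetylase and N-sulfotransferase genes passed in edgeR, the nearest being *Ndst3* at 0.50 (edgeR adjusted p = 0.00214), which DESeq2 called. At an unadjusted p below 0.05, 2 of these 4 were higher and 1 was lower. None of 6 tested genes that supply sugar and sulfate donors passed in any of the 3 tools, and 3 of them were lower at an unadjusted p below 0.05.

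Of 6 tested genes that edit chains outside the cell or release core proteins, 2 fell in edgeR, 4 in DESeq2 and 1 in limma voom. The 2 are 33.3% of the list, where 4.97% of all genes tested fell and 8.61% changed in edgeR. DESeq2 called 1232 of all 13891 genes fallen. *Sulf1*, an extracellular enzyme that removes 6-O-sulfate groups, had 58.8, 61.2, 48.1 and 67.2 normalised counts in CKO samples, against 143, 143, 180.4 and 175 in control samples. The genotypes did not overlap, and the log2FC was -1.44 (SE 0.134, edgeR adjusted p = 1.92e-05), which passed in all 16 alternatives. The level of *Sulf1* was low, at 0.342 RPKM in CKO samples and 0.931 RPKM in control samples. Its relative *Sulf2* was at 37.1 RPKM in CKO samples and 42.0 RPKM in control samples. *Sulf2* did not pass (log2FC -0.18, edgeR adjusted p = 0.185), and its genotypes overlapped. *Notum*, a secreted hydrolase first described in flies as releasing glypicans and known in vertebrates to inactivate Wnt proteins by removing their lipid, had 14.3, 14.6, 27.3 and 18.1 normalised counts in CKO samples, against 150.0, 145, 42.2 and 99.2 in control samples. Control replicate 3 was far below the other controls but above every CKO sample, and the log2FC was -2.58 (SE 0.379, edgeR adjusted p = 0.000398). The *Notum* call was lost in 6 of 8 fits that left out 1 sample and in 2 other alternatives (edgeR adjusted p up to 0.00213 without 1 sample and 0.00278 in limma voom). Antisense genes cover parts of the *Notum* exons (29.4% for *Notumos*), and reads of the strands cannot be told apart. The convertase *Furin* and the sheddase *Adam17* had log2FC of -0.34 and -0.31 and did not pass in edgeR (adjusted p = 0.00339 and 0.00382), while DESeq2 called both (adjusted p = 0.000337 and 0.000473).

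Among 10 tested epimerase and O-sulfotransferase genes edgeR called 1, *Hs3st3b1*, which adds the rare 3-O-sulfate and which rose. That is 10% of the list. Over all genes tested, 8.61% changed in either direction and 3.64% rose. DESeq2 called 3 risen and 1 fallen, and limma voom 1 risen and 1 fallen. *Hs3st3b1* had 193, 245, 229 and 212 normalised counts in CKO samples, against 141, 104, 140.4 and 138 in control samples. The genotypes did not overlap, and the log2FC was 0.75 (SE 0.115, edgeR adjusted p = 0.000527). The relative *Hs3st4* had 128, 290.3, 296 and 263 normalised counts in CKO samples, against 494, 523, 582 and 558 in control samples, also with no overlap. Its log2FC of -1.15 (SE 0.198) just missed the threshold at an edgeR adjusted p of 0.00111. It passed in DESeq2 (adjusted p = 5.07e-08), in limma voom (adjusted p = 0.00088), with library totals (edgeR adjusted p = 0.000943), without the filter (edgeR adjusted p = 7.99e-09) and with sex as a covariate (edgeR adjusted p = 0.000219). Without CKO replicate 1, the lowest sample, the log2FC was -0.93 with an edgeR adjusted p of 1.88e-05. The *Hs3st3b1* call was lost in 8 of 16 alternatives, among them 6 of 8 fits that left out 1 sample (edgeR adjusted p up to 0.00239) and the fit with sex as a covariate (edgeR adjusted p = 0.0012).

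**Figure D4:**
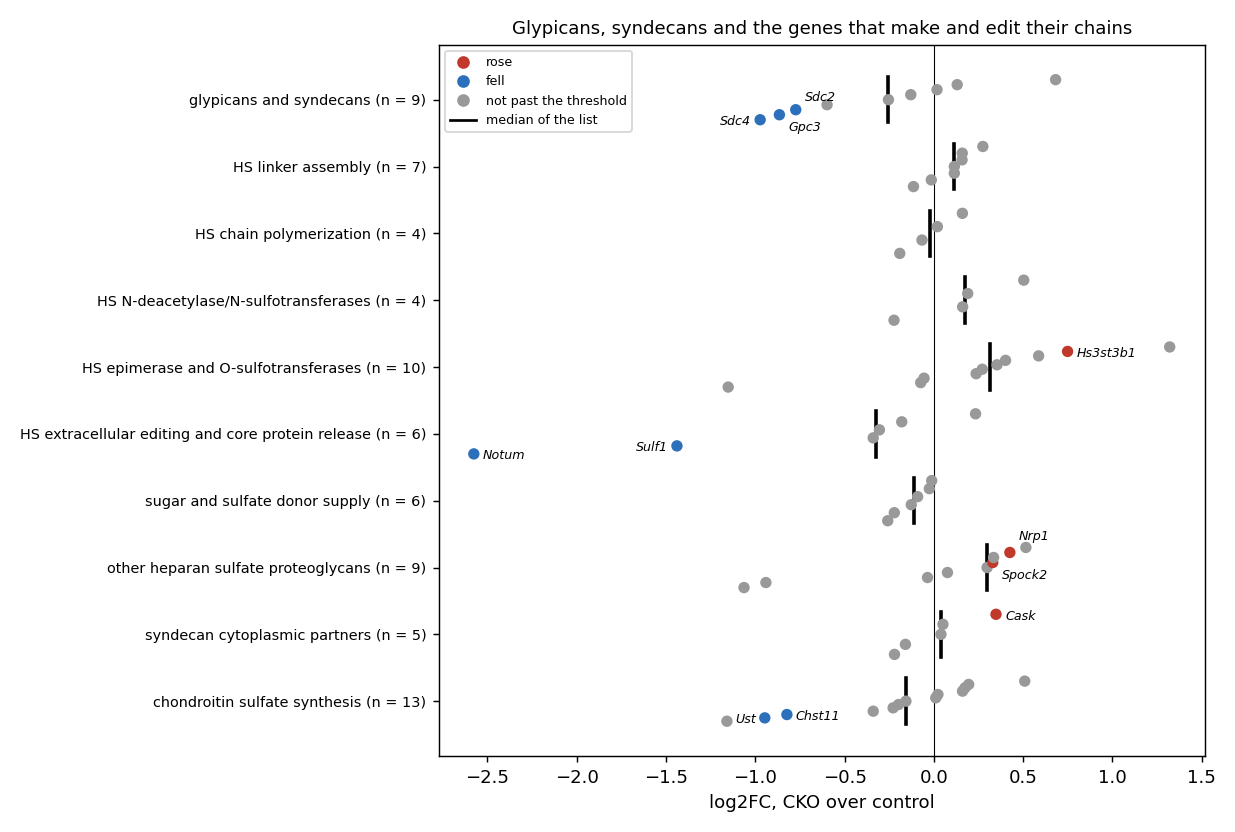
The log2FC (CKO over control) of the members and listed genes tested, 1 point a gene, with the median of each list as a bar. The lists hold genes of heparan sulfate synthesis, donor supply and editing, other proteoglycans, syndecan cytoplasmic partners and chondroitin sulfate synthesis. Red points rose and blue points fell, with *Notum* at -2.58 and *Sulf1* at -1.44 the lowest shown.

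Of 9 other heparan sulfate proteoglycans, 2 rose in edgeR and none fell. The 2 are 22.2% of the list, where 3.64% of all genes rose and 8.61% changed. At an unadjusted p below 0.05, 5 were higher and 2 lower, and DESeq2 called 4 risen and 1 fallen. The sum of the 9 was 185 to 218 RPKM in CKO samples and 154 to 163 in control samples, without overlap. *Agrn*, the highest of them at 103 RPKM in CKO and 72.4 in control samples, did not pass in edgeR. Its genotypes did not overlap (log2FC 0.52, edgeR adjusted p = 0.00314). *Nrp1*, a semaphorin and VEGF receptor that can carry a heparan sulfate chain, averaged 1164 ± 83.8 normalised counts in CKO samples and 867 ± 49.0 in control samples (SD, n = 4 each; log2FC 0.43, SE 0.0635, edgeR adjusted p = 0.000437). *Spock2*, a testican of the neural matrix, averaged 3613 ± 87.2 in CKO samples and 2879 ± 159.8 in control samples (SD, n = 4 each; log2FC 0.33, SE 0.0469, edgeR adjusted p = 0.00032). The basement membrane gene *Col18a1* had 565, 766, 987 and 953 normalised counts in CKO samples and 1931, 1625, 1216 and 1472 in control samples, without overlap, but did not pass (log2FC -0.94, edgeR adjusted p = 0.00149). Of 5 tested cytoplasmic partners of syndecans 1 rose, which is 20% of the list, beside 3.64% of all genes that rose and 8.61% that changed. This was *Cask*, a PDZ scaffold that binds the syndecan tail (2619.7 ± 57.9 in CKO samples and 2061 ± 117 in control samples, SD, n = 4 each). Its log2FC was 0.35 (edgeR adjusted p = 0.000433). Syntenin (*Sdcbp*) had a log2FC of 0.05 (95% interval -0.04 to 0.14). The calls of *Spock2* and *Cask* were each lost in 6 of 8 fits that left out 1 sample and that of *Nrp1* in 4 of 8, with edgeR adjusted p of at most 0.00269.

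Chondroitin sulfate, the other chain that some syndecans carry, was counted separately. Of 13 tested genes of its synthesis, 2 fell in edgeR and 11 did not pass, with a median log2FC of -0.16. The 2 are 15.4% of the list, where 4.97% of all genes fell and 8.61% changed. At an unadjusted p below 0.05, 2 were higher and 5 lower, and DESeq2 called 1 risen and 2 fallen. *Chst15* was higher in CKO samples without overlap, but did not pass in edgeR (log2FC 0.51, adjusted p = 0.0016). It passed in DESeq2 (adjusted p = 3.41e-06) but not in limma voom (adjusted p = 0.00137). *Chst11*, which sulfates chondroitin at the 4-O position, had 460.0, 547, 528 and 530.4 normalised counts in CKO samples, against 874, 905, 899.6 and 976 in control samples (log2FC -0.82, SE 0.0652, edgeR adjusted p = 5.9e-06). It passed in all 16 alternatives. *Ust*, a uronyl 2-O-sulfotransferase, averaged 124 ± 19.6 in CKO samples and 240.1 ± 35.0 in control samples (SD, n = 4 each; log2FC -0.95, SE 0.133, edgeR adjusted p = 0.000298), and its call was lost in 3 of 8 fits that left out 1 sample (edgeR adjusted p up to 0.00114).

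For each member that fell, the 3 genes with the most similar log2 CPM over the 8 samples are given as a description. The points share libraries and the division into genotypes, which alone makes many genes alike. They were *Cdh20* (a cadherin), *Dnajc9* (a histone chaperone) and *Ift74* (intraflagellar transport) for *Gpc3*, with Pearson r of 0.993 to 0.995. For *Sdc2* they were *Dnmt1* (the maintenance DNA methyltransferase), *Afap1l1* (an actin-associated protein) and *Gli2* (a Hedgehog transcription factor), with r of 0.990 to 0.994. For *Sdc4* they were *Ehd4* (endocytic recycling), *Mthfd1l* (mitochondrial folate metabolism) and *Stt3a* (an oligosaccharyltransferase subunit), with r of 0.990 to 0.995.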

How the data were processed

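The authors made poly(A) libraries with the TruSeq V2 kit, which does not keep strand, sequenced them in single-end reads, aligned them to mm10 with TopHat2 and deposited raw counts per gene from HTSeq, without normalization or pooling of replicates; the submitters' processing notes also name Cufflinks. No source used here gives tool versions, the annotation release or the strand setting of the counting step. Samples were grouped by their labels, and all 8 were used. The labels do not assign litters or days to samples, so neither entered a fit. Replicates of a genotype differed by more than sampling noise.

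In R 4.3.3, genes with at least 20 normalised counts (counts over DESeq2 size factors, that is, median of ratios) in at least 3 samples were fitted with edgeR 4.0.16 (TMM, quasi-likelihood, genotype only), with Benjamini-Hochberg adjustment over all genes tested. Each SE was obtained by dividing the log2FC by the root of its F statistic. Of 28432 gene IDs, 28232 were matched to GENCODE M21 (GRCm38) for exon lengths and overlaps. The script was tested on simulated data. The members, the gene lists and the rule for named genes (all members, up to 4 genes of each list with the smallest p and those needed to say what did not pass, the 3 genes most like each member that passed, *Lhx2* and *Xist*) were chosen with earlier results of these data known. Alternatives were DESeq2 1.42.0, limma voom (limma 3.58.1), median-of-ratios factors, library totals, no filter, filterByExpr, a threshold of 0.05, the replicate number as a block, embryo sex as a covariate and leaving out each sample.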

Additional observations from a re-analysis of the deposited data

Results flagged for a closer look

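Dixon's test was run on 20 groups of 4 samples, 1 for each member and genotype, and marked a value in 4 groups. Chance marks about 1 such group in 20, but the marks below do not all count as separate evidence against that rate. *Gpc2* had 2027 normalised counts in CKO replicate 1, above the other CKO samples. *Gpc4* had 345 normalised counts in control replicate 3, below the other controls, and *Gpc6* had 564 in the same sample, again the lowest. The *Gpc4* and *Gpc6* marks share a library and so are not independent. *Gpc5* had 1.59 normalised counts in CKO replicate 1, which are 2 reads, where the other CKO samples had 0. With 0 in all the others, any count above 0 would have been marked, so this mark carries no information.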

How the results depend on the processing

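*Gpc3* passed in 16 of 16 alternative fits, *Sdc2* in 15 and *Sdc4* in 11, and no member that passed turned its direction. The replicate block, used only as an alternative because the numbers did not pair the samples (correlations of deviations from -0.153 to 0.142), gave *Sdc2* -0.77 (edgeR adjusted p = 0.00123), *Sdc4* -0.99 (edgeR adjusted p = 0.00152) and *Hs3st3b1* 0.75 (edgeR adjusted p = 0.00306), and *Hs3st4* passed at -1.20 (edgeR adjusted p = 0.000621). This left 1 member that fell, 272 genes that rose and 404 that fell. Leaving out 1 sample moved *Sdc4* between -1.05 and -0.84 and *Gpc1* between -0.0069 and 0.0488, and library totals gave *Gpc1* -0.0095. Without the filter *Gpc2* (0.68, edgeR adjusted p = 7.09e-06) and *Gpc4* (-0.60, edgeR adjusted p = 0.000132) passed, so 1 member rose, as 1 did at a threshold of 0.05. All genes that rose numbered 1158 in DESeq2, 964 without the filter, 2207 at 0.05 and 264 to 707 with 1 sample left out, and those that fell 1232, 1091, 2412 and 422 to 846. Heparan sulfate genes that rose numbered 9 in DESeq2, 7 without the filter, 1 with the replicate block, 15 at 0.05 and 0 to 4 with 1 sample left out, and those that fell 6, 4, 2, 10 and 1 to 4. With 1 sample left out *Ext1* lay between -0.106 and 0.0071 and *Extl3* between -0.0052 and 0.0736, and library totals gave *Extl3* -0.0064. Fits with 7 samples have fewer residual degrees of freedom, but the cause of the changes between fits was not tested. The level of *Gpc2* per kilobase of unshared exon, 47.3 in CKO samples and 29.6 in control samples, and the pigment epithelium sum without *Ttr* were added after seeing the data. The ratio of *Gpc6* to *Gpc5* was not run because *Gpc5* had 0 reads in 4 samples. Depth limits *Gpc5*, and 4 samples a genotype limit the rest.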
